A study of Homo sapiens with 3 samples.

Results

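Ribosome peaks that carry the promoter-TSS label were described in 3 peak lists from HEK293T cells, a human embryonic kidney line. Members were the rows whose deposited annotation begins with promoter-TSS, and there were 12230 of them among 46819 peaks. The label was given by the authors' annotation step to peaks from 1000 bases upstream to 100 bases downstream of a RefSeq transcription start site, before any exon or UTR was considered. The cells were transiently transfected for 24 h with empty pCDNA3.1 vector (vector), with the same kind of vector expressing FLAG-tagged wild-type DDX3X (WT DDX3X), or with one expressing FLAG-tagged DDX3X G325E (G325E). DDX3X, an RNA helicase of the DEAD-box family, takes part in starting translation, and G325E is a medulloblastoma-associated substitution in it. No label mentions removal of the endogenous gene in any of the samples. The labels give harringtonine at 2 µg/ml for 90 s and then cycloheximide at 100 µg/ml for all samples, whereas the study's methods name cycloheximide alone. There was 1 library per construct (no replicates), so no difference below was tested, and intervals cover counting error only.

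A ribosome shields a short stretch of RNA from nuclease, and sequencing those stretches shows where ribosomes stood. Harringtonine holds initiating ribosomes near start codons and cycloheximide halts elongating ones. A promoter is DNA to which the transcription machinery binds, and an RNA fragment assigned to one can derive from the 5′ end of the gene's own mRNA, from a transcript that starts further upstream, from a transcript of the other strand or from another gene that overlaps the region. Human genes often share promoters head to head, and small nucleolar RNAs (snoRNAs, which guide modification of ribosomal RNA) and microRNAs often lie inside larger genes, so that the start site of one can fall in an exon of another.

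The promoter-TSS label took in ordinary translation start sites, but most of its peaks did not cover a start codon. In vector 9.96% of promoter-TSS peaks covered an annotated start codon, and the shares of all lists are given below. Of the stretches covered by promoter-TSS peaks in all 3 lists, 84 held an annotated start codon with 12 bases before it and 15 after it. Sequences of 6 of the 8 genes with the longest such stretches are shown, leaving out the further H2B histone genes H2BC11 and H2BC17, 5′ to 3′ on the peak's strand, with the start codon in capitals. They were chosen after the data were seen and are listed under the gene whose exon holds the peak.
PSMD2: gtggcggcggagATGgaggagggaggccgg
CCT6A: gctggagcagctATGgcggcggtgaagacc
RACK1: ctcgccgccgccATGactgagcagatgacc
SSNA1: gcggcgttgaccATGacccagcagggcgcg
H2BC12: ttcgccttcaacATGccggaaccagcgaag
C19orf53: gcgtgccggaccATGgcgcaggggcagcgc
PSMD2 encodes a proteasome subunit, CCT6A a subunit of the TRiC chaperonin, RACK1 a protein of the small ribosomal subunit and H2BC12 a core histone. In GRCh37 these 30-base windows lie at chr3:184017043-184017072 (plus strand), chr7:56119530-56119559 (plus), chr5:180670783-180670812 (minus), chr9:140083167-140083196 (plus), chr6:27114560-27114589 (minus) and chr19:13885280-13885309 (plus). The gene that placed the peak in the class was PSMD2 itself for the first and C19orf53 itself for the last. It was the neighbour PSPH for CCT6A, the snoRNA SNORD95 for RACK1, the neighbour ANAPC2 for SSNA1 and the histone gene HIST1H2AH for H2BC12.

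A second set shows the stretches that were not common to the lists. For genes with many more promoter-TSS peaks in G325E, 30 bases at the midpoint of a stretch covered in G325E alone are printed, and capitals mark the letters GGCGGC. The same letters, not marked there, also occur in the PSMD2 and CCT6A sequences of the first set. NR2F2, whose window had a GC content of 76.7% and no GGCGGC, is left out.
GRK5: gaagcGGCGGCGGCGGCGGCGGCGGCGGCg
HP1BP3: gcGGCGGCgggagcggcgccgagaggccgt
FOXC1: gcagcgggccggcaccagctcggccgggcc
CITED1: tggccgccaccgccaccgccccggagtccg
These lie at chr10:120967215-120967244 (plus strand, GC content 93.3%), chr1:21113724-21113753 (minus, 86.7%), chr6:1610560-1610589 (plus, 86.7%) and chrX:71526601-71526630 (minus, 83.3%). Other genes had promoter-TSS peaks in vector and WT DDX3X and none of that class in G325E. For these, the same length is printed from a stretch covered in both of those lists, here under the gene whose exon holds it. The window of MIR3187, in coding sequence of PLPPR3 with a GC content of 66.7%, is left out.
EIF4A1: tcttcatcaacacccggaggaaggtggact
UQCC3: ggacccaaggagcagggaggaGGCGGCcag
SIRT1: agcgggagcagaggaggcgagggaggaggg
These lie at chr17:7480948-7480977 (plus strand, GC content 53.3%), chr11:62439439-62439468 (plus, 73.3%) and chr10:69644431-69644460 (plus, 73.3%). The first and the second are in coding sequence and the third is in a 5′ UTR.

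To determine how much of each profile carried the label, promoter-TSS peaks were counted as a share of each list. The vector list held 2580 among 11219 peaks, or 23% (95% Wilson interval 22.2 to 23.8). The WT DDX3X list held 4210 among 19920, or 21.1% (20.6 to 21.7). The G325E list held 5440 among 15680, or 34.7% (34 to 35.4). The interval of G325E thus lay above both of the others. Vector and WT DDX3X lay closer together, although their intervals did not overlap either. These intervals take each peak as independent, but peaks cluster, so they can be too narrow. In vector, the 2580 promoter-TSS peaks formed 2076 stretches when those 10 bases apart or less were joined. They averaged 2.7 per gene with such a peak. Exon-class peaks, the most frequent class in each list, made up 49.5%, 51.6% and 35.6% in vector, WT DDX3X and G325E. The 5′ UTR class held 567 of 11219, 1028 of 19920 and 1359 of 15680 peaks. Its share was thus also highest in G325E, so a higher share there was not particular to promoter-TSS peaks. In bases, promoter-TSS peaks covered 93954, 150797 and 221986, or 20.7%, 19.2% and 32.2% of the bases in all peaks of the list. Read depth is not in these files and the read totals that the study tabulates were not used here, so no share is scaled to depth. Of the authors' peak numbers, 14.8% and 13.5% are missing from the vector and WT DDX3X lists but 0 from the G325E list.

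GC content moved with the share, and its part in the difference was not tested. The median GC content of 31 bases at the midpoint of promoter-TSS peaks was 71% in vector, 71% in WT DDX3X and 77.4% in G325E. Peaks of the other classes had medians of 61.3%, 61.3% and 71%. Of promoter-TSS peaks, 20.7% in vector, 21.3% in WT DDX3X and 44.3% in G325E had a GC content of 80% or more. Within each band of GC content the G325E share was again the highest, by fewer percentage points than overall but, under 50% GC, not by a smaller ratio. Among peaks under 50% GC, the promoter-TSS share was 9.56% in vector (8.36 to 10.9), 7.18% in WT DDX3X (6.41 to 8.04) and 15.9% in G325E (13.4 to 18.7). Among peaks of 80% GC or more it was 39.9% (37.3 to 42.5), 39.3% (37.3 to 41.3) and 43.4% (42.1 to 44.7). With all lists weighted to the same GC content the shares were 25.5%, 23.9% and 29.9%. Restricting this further to the 1430 genes with a peak of any class in every list gave 26.7%, 26.6% and 29.2%, so that the G325E value kept its place above the others with a much smaller difference.

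**Figure D1:**
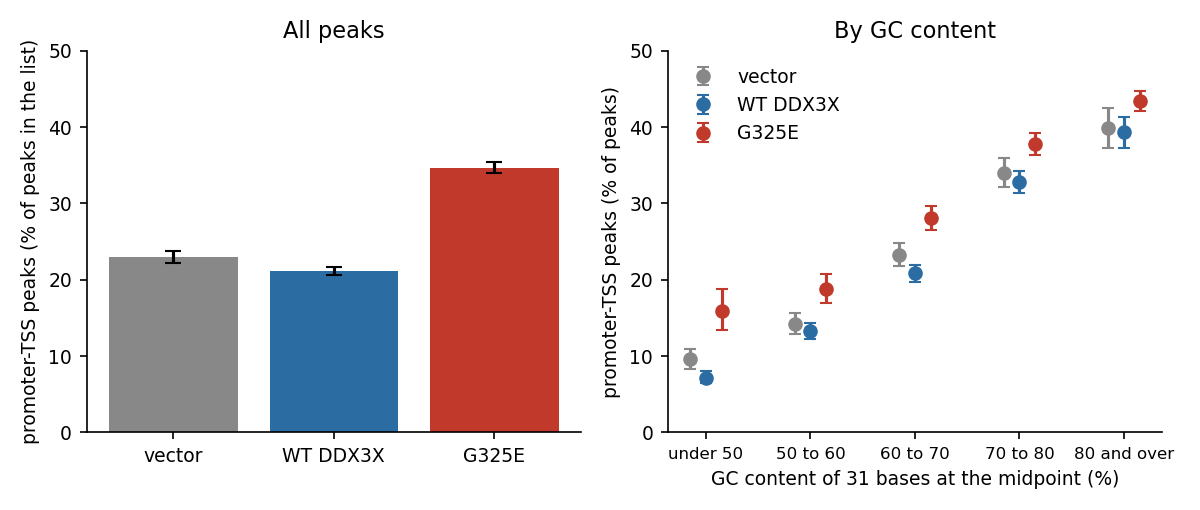
Promoter-TSS peaks as a percentage of all peaks in each list (left) and of the peaks in each band of GC content (right). Bars and points are shares of 1 library each and lines are 95% Wilson intervals; the overall share was 34.7% in G325E against 23% and 21.1%, and in percentage points the lists were closer within bands of GC content.

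To locate the peaks, the deposited distance to the nearest transcription start site was given a direction from the strand of the gene. Its sign as deposited follows the peak's strand and does not separate upstream from downstream. Where the transcript that placed the peak was also the nearest one, all 7024 directed distances lay within the limits of the class, but only 78.9% of the deposited ones did. For those peaks the median was 68 bases upstream in vector (value −68, 95% order-statistic interval −88 to −55), −69.5 in WT DDX3X (−83 to −59) and −63 in G325E (−71 to −56). The intervals of the 3 lists overlapped. Downstream of the start site lay 37.6%, 37.2% and 35.2% of these peaks. More than 500 bases upstream lay 11.2% in vector, 9.46% in WT DDX3X and 8.17% in G325E.

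Peaks piled up against the downstream limit of the class. On the gene's own strand, 25.5% (22.9 to 28.2), 24.4% (22.4 to 26.5) and 23.2% (21.5 to 25) of these peaks were 50 to 100 bases downstream of the start site in vector, WT DDX3X and G325E. Over all classes, peaks on the gene's strand numbered 373, 572 and 712 from 51 to 100 bases downstream, just inside the limit. They numbered 365, 582 and 721 from 101 to 150 bases, just outside it. The promoter-TSS label was carried by 99.2%, 99.5% and 99.3% of the first and by 23.6%, 24.1% and 22.6% of the second, through the start site of another transcript. Median lengths just inside and just outside were 40 and 42 bases in vector, 39 and 43 in WT DDX3X, and 50 and 50 in G325E. Peaks therefore continued across the limit in like numbers and lengths, and beyond it they were mostly labelled 5′ UTR (33.2%, 36.9% and 40.1%) or exon (27.1%, 25.3% and 25.8%).

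**Figure D2:**
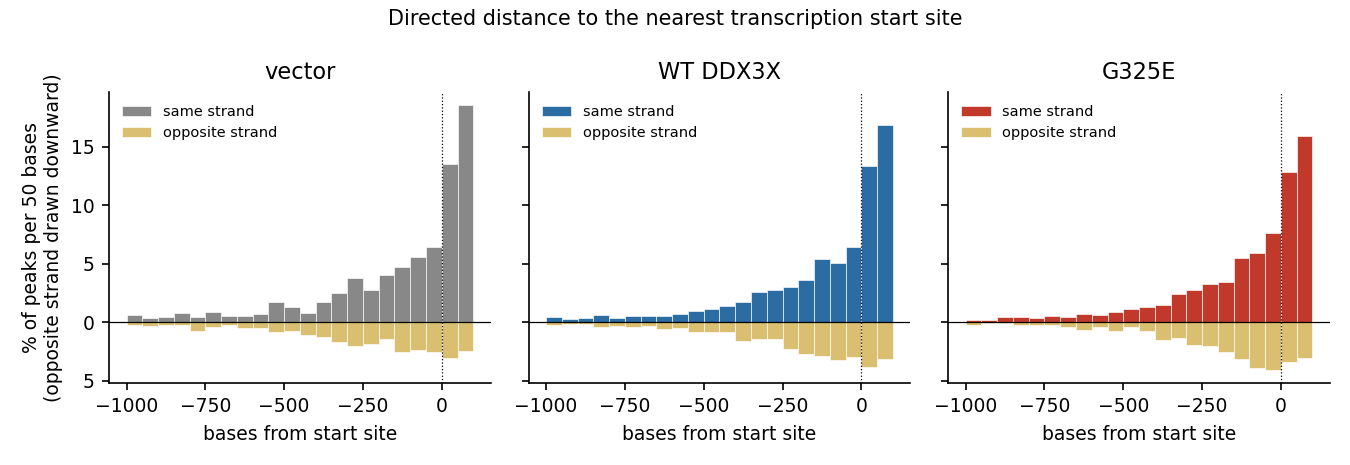
Promoter-TSS peaks placed by their nearest transcript, per 50 bases of directed distance to its start site (negative is upstream), as a percentage of such peaks in each list. Bars above the line are peaks on the gene's strand and bars below it are on the opposite strand; in all 3 lists the bar next to the 100-base downstream limit is the tallest, and opposite-strand peaks lie further upstream.

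The strand of the peaks differed by class. Relative to the nearest gene, 24.1% (22.5 to 25.8), 27.7% (26.4 to 29.1) and 29% (27.8 to 30.2) of promoter-TSS peaks in vector, WT DDX3X and G325E were on the opposite strand. In the exon class this was 11.9%, 14.7% and 12.2%, and in the intron class 29.2%, 29.7% and 37.6%. Among peaks placed by their nearest transcript, opposite-strand ones lay further upstream, with median directed distances of −174.0, −138.0 and −115.0 bases against −33, −31 and −37 for peaks on the gene's strand. Among the same peaks they also less often lay downstream of the start site, at 20.2%, 22.6% and 20.7% against 44%, 43.7% and 41.9%.

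The start site that placed a peak often belonged to a different gene. The nearest transcript placed 56.5%, 58.4% and 59.7% of promoter-TSS peaks in vector, WT DDX3X and G325E, another transcript of the nearest gene placed 14%, 15% and 16.9%, and another gene placed 29.4%, 26.5% and 22.8%. A snoRNA or microRNA gene placed 9.53% (8.46 to 10.7) in vector, 8.17% (7.38 to 9.04) in WT DDX3X and 4.43% (3.91 to 5.01) in G325E. With peaks placed by other transcripts included, directed distances to the nearest start site ran from −991 to 977 bases, with medians of 23 bases in vector (18 to 30), 15 in WT DDX3X (10 to 20) and 1 in G325E (−6 to 7), and 56.4%, 53.9% and 50.3% were downstream.

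To ask what RNA these peaks could represent, each midpoint was set against GENCODE transcripts. An exon on the peak's own strand held 64.6% (62.8 to 66.4) of promoter-TSS peaks in vector, 61.7% (60.2 to 63.2) in WT DDX3X and 54.8% (53.5 to 56.1) in G325E. An intron on that strand held 9.03%, 8.19% and 9.61%, and an exon of the opposite strand alone held 8.68%, 10.7% and 11%. No annotated transcript on either strand covered 14.1% (12.8 to 15.5), 16% (14.9 to 17.1) and 18.9% (17.8 to 19.9). In the exon class that last share was 0.05%, 0.04% and 0.02%. Of the promoter-TSS peaks outside any transcript, 83.4%, 84.3% and 88.6% lay upstream of the nearest start site, and their median GC content was 74.2%, 74.2% and 80.7%.

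**Figure D3:**
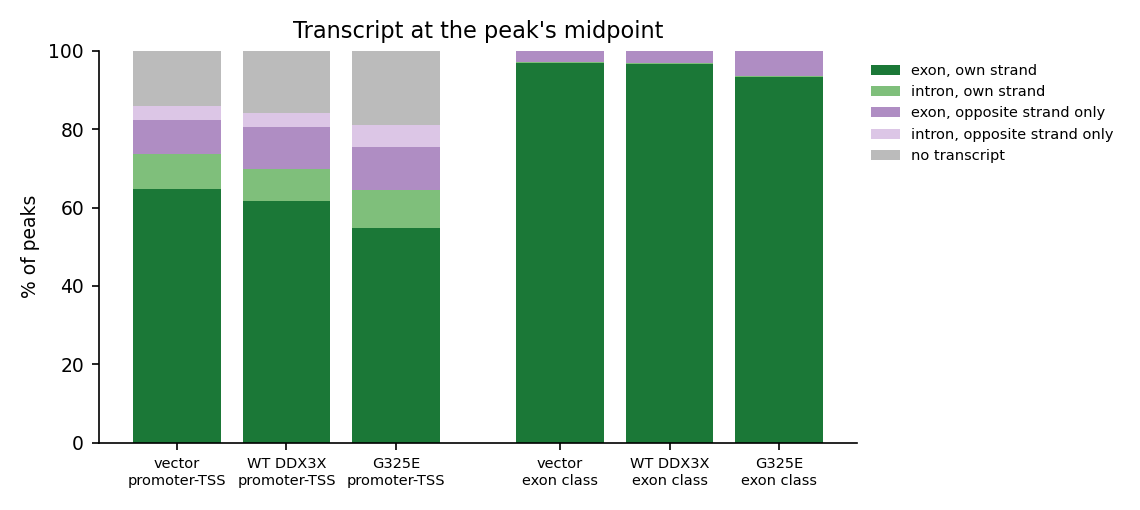
Percentage of peaks by the GENCODE feature at their midpoint, for promoter-TSS peaks (left 3 bars) and exon-class peaks (right 3 bars) of each list. An own-strand exon held 64.6%, 61.7% and 54.8% of promoter-TSS peaks in vector, WT DDX3X and G325E but over 93% of exon-class peaks.

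Promoter-TSS peaks within exons of their strand were then placed on canonical transcripts. The 5′ UTR held 28.4% (26.3 to 30.6) of them in vector, 30.8% (29.1 to 32.6) in WT DDX3X and 40.7% (39 to 42.5) in G325E. Coding sequence held 44.6% (42.3 to 47), 39.7% (37.8 to 41.5) and 34.2% (32.6 to 36). Along the spliced transcript, the median midpoint in 5′ UTR or coding sequence was 24 bases past the start codon in vector (18 to 30) and 12 in WT DDX3X (7 to 17). In G325E it was −18 (−28 to −9), before the start codon. Relative to the start codon, the G325E list was the one with the more 5′ position, over genes that differ between the lists. GC content differed along with it as given above. Relative to the start site, the medians of peaks placed by their nearest transcript had overlapping intervals, and that of G325E was the least far upstream.

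Annotated start codons were covered by 9.96% of promoter-TSS peaks in vector (8.86 to 11.2), 9.07% in WT DDX3X (8.24 to 9.98) and 8.12% in G325E (7.43 to 8.88). Exon-class peaks covered one in 4.54%, 3.49% and 6.26% of cases and 5′ UTR peaks in 16.6%, 14.1% and 14.9%. Of all the peaks over a start codon, 40.5%, 41% and 42.5% carried the promoter-TSS label. The bases beside these codons were read because a purine at position −3 and a G at position +4, counted from the A of ATG as position 1, favour initiation in vertebrates. Position −3 was A or G at 95.7% (92.5 to 97.6) of 256 codons in vector, 94.5% (91.7 to 96.4) of 381 in WT DDX3X and 92.1% (89.2 to 94.2) of 441 in G325E. Over 19485 canonical start codons of the annotation it was 85.3%. Position +4 was G at 64.8%, 68.2% and 67.4%, against 52.1% over the annotation. The annotation includes genes without any peak, and codons under peaks of other classes are not given beside these. Whether the difference is particular to promoter-TSS peaks was not tested.

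Promoter-TSS peaks were slightly shorter than the rest. Their median length was 28 bases in vector (27 to 28), 27 in WT DDX3X (27 to 28) and 29 in G325E (28 to 29), and 31, 29 and 31 for the other classes. Those downstream of the start site were longer, with medians of 30, 29 and 35 bases against 24, 24 and 25 upstream. Lengths ran up to 344, 386 and 500 bases, and 15.5%, 14.3% and 18% exceeded 60 bases. A length of 25 to 35 bases, about that of a single ribosome footprint, was found in 26.5%, 25.4% and 23.9%.

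The letters GGCGGC, a GC-rich repeat unit, were counted as one sequence feature that the class definition does not use. On the peak's strand 9.53% (8.46 to 10.7) of promoter-TSS peaks in vector, 8.19% (7.40 to 9.06) in WT DDX3X and 14.1% (13.2 to 15) in G325E held them in the 31 bases at their midpoint. On the other strand the shares were 5.58%, 5.84% and 11%. Windows of the same size at the promoters of 19812 protein-coding start sites held them in 2.23% of 435445 cases on the gene's strand and 1.85% on the other. Those windows had a lower median GC content, 54.8%, and 6.7% of them reached 80%. Peaks of the 5′ UTR class held the letters on their strand in 10.6%, 8.66% and 16.0% of cases, and exon-class peaks in 3.06%, 2.71% and 8.63%. Among promoter-TSS peaks of 80% GC or more the shares on the peak's strand were 19.1% (16 to 22.7), 15.1% (13 to 17.6) and 21% (19.4 to 22.7), with overlapping intervals for vector and G325E. The repeat in the GRK5 sequence printed above is the clearest run of it among the sequences shown.

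To compare the lists position by position, overlaps of at least 1 base were counted. Of the vector promoter-TSS peaks, 69.3% (67.5 to 71.1) overlapped one of WT DDX3X and 56.1% (54.1 to 58) one of G325E. Over vector peaks of all classes, 76.8% overlapped some WT DDX3X peak and 48.1% some G325E peak. WT DDX3X promoter-TSS peaks overlapped those of vector in 40.6% (39.1 to 42.1) and those of G325E in 46.1% (44.6 to 47.6), beside 41.6% and 34.9% over its peaks of all classes. G325E promoter-TSS peaks overlapped those of vector in 26.6% (25.4 to 27.8) and those of WT DDX3X in 37% (35.7 to 38.2), beside 35.4% and 47.3% over its peaks of all classes. Vector and WT DDX3X promoter-TSS peaks were thus found in the G325E list more often than their exon-class peaks were (any class, 56.9% against 47.4% and 46.8% against 31.6%). G325E promoter-TSS peaks were found in the other lists less often than its exon-class peaks (27.2% against 49.5% in vector and 37.6% against 63.8% in WT DDX3X). The 5′ UTR class showed the same order against the exon class. Of 5′ UTR peaks, 70.55% in vector and 57.6% in WT DDX3X overlapped a G325E peak. Those of G325E overlapped vector peaks in 28.8% and WT DDX3X peaks in 43.6%. Overlapping peaks were on the same strand in 95.2% to 96.8% of cases. The lists differ in size and in missing peak numbers, so each share holds for its own direction.

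**Figure D4:**
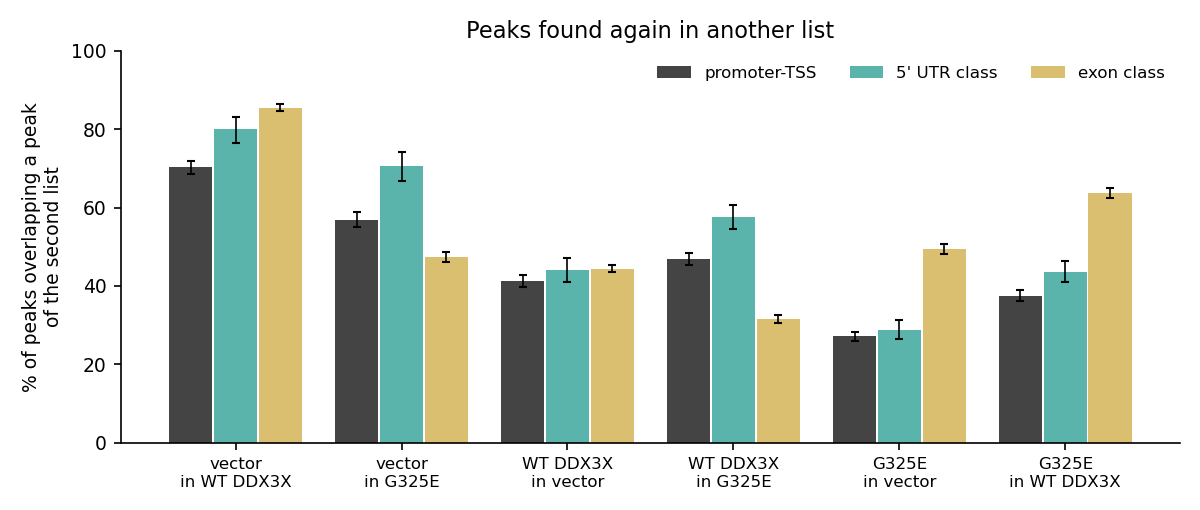
Percentage of promoter-TSS, 5′ UTR and exon-class peaks of the first list that overlap a peak of any class in the second list, with 95% Wilson intervals. G325E promoter-TSS peaks overlapped vector peaks in 27.2% and WT DDX3X peaks in 37.6% of cases, below its exon-class peaks at 49.5% and 63.8%. Its 5′ UTR peaks, at 28.8% and 43.6%, were also below the exon class.

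Shared and unshared peaks differed in kind. Overlap was counted here with peaks of any class. In G325E, 1250 promoter-TSS peaks (23%) overlapped a peak in both other lists, 1020 (18.8%) in a single other list, and 3170 (58.3%) in neither. The 1250 had a median length of 38.5 bases and a median GC content of 71%, and 77% of them were in an exon of their strand. The 3170 had a median length of 27 bases and a median GC content of 80.6%, and 44% were in such an exon and 23.5% in no transcript. Start codons were covered by 15.6% of the first and 5.1% of the second. The same order of length, exon share and start codons held in vector, where 47.8% were in both other lists and 20.6% in neither, and in WT DDX3X (28.2% and 40.1%). In vector and WT DDX3X the median GC content was 71% in shared and unshared peaks alike.

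Genes were counted by the deposited name of the nearest gene. A promoter-TSS peak was present on 957 genes in vector (45.4% of the 2108 with any peak), 1439 in WT DDX3X (45.1% of 3189) and 1616 in G325E (67.2% of 2404). In the union of 2095 genes, 692 (33%) had one in every list, 550 (26.3%) in G325E alone, 312 (14.9%) in WT DDX3X and G325E, and 276 (13.2%) in WT DDX3X alone. Vector and WT DDX3X without G325E held 159 (7.59%), vector and G325E 62, and vector alone 44. Of the 550 found in G325E alone, 162 had a peak of another class in vector or WT DDX3X, so that the others had no peak of any kind there. Over the 1430 genes with a peak in every list, a promoter-TSS peak was present on 795, 880 and 917. Genes with 5 or more were 15.5%, 19.2% and 25.5% of those with one.

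The genes with the most promoter-TSS peaks were often named for a neighbour. MTRNR2L8 led with 21, 15 and 12 peaks in vector, WT DDX3X and G325E. It is a nuclear copy of mitochondrial ribosomal RNA, and reads of near-identical copies cannot be told apart, so its counts are uncertain. SLC1A5, a glutamine transporter, had 13, 14 and 14 peaks, of which 32 lay in its own exons. YRDC, an enzyme of transfer RNA modification, had 16, 12 and 9, but 32 of these 37 were on the strand opposite to YRDC and 30 were in exons of its head-to-head neighbour C1orf122. ANAPC2, a subunit of the anaphase-promoting complex, had 10, 11 and 12, and 23 of the 33 were in exons of SSNA1, a microtubule-associated protein. The microRNA gene MIR4721 had 7, 14 and 12, and 32 of the 33 were in exons of TUFM, the mitochondrial translation elongation factor Tu. GLUD1, glutamate dehydrogenase, had 10, 13 and 11, all placed by the start site of FAM35A. NGFRAP1 (BEX3), from a family of small X-linked proteins, had 12, 12 and 10. SLX1B, a nuclease subunit, had 15, 15 and 4, nearly all on the strand of the BOLA2 and BOLA2B genes, which exist in near-identical copies and are uncertain for that reason.

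When promoter-TSS peaks were counted instead by the gene whose exon holds them, proteins of the translation machinery were among those with the most. RPS2, of the small ribosomal subunit, had 20, 20 and 14 in vector, WT DDX3X and G325E. RPL7A had 11, 14 and 15, RPL3 had 11, 14 and 11, and RPL17 had 14, 15 and 3. EIF4A1, the helicase of the cap-binding complex, had 14, 23 and 0. In RPS2, RPL7A and EIF4A1 many of these peaks bear the names of snoRNA genes inside them. SNORA64 is the named gene for 23 RPS2 peaks, SNORD24 for 18 RPL7A peaks, and SNORA67 and SNORA48 for 18 and 12 EIF4A1 peaks. These genes were chosen after their values were seen.

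The largest excess of promoter-TSS peaks in G325E was on SHARPIN, a subunit of the linear ubiquitin ligase, with 0 in vector, 0 in WT DDX3X and 15 in G325E. All 15 were placed by the start site of MAF1, a repressor of RNA polymerase III, and 8 were on the opposite strand. CITED1, a transcriptional coactivator, had 0, 0 and 13, although it had 8 peaks of any class in vector and in WT DDX3X. FOXC1, a forkhead transcription factor, had 0, 2 and 14, and 7 of these 16 lay in no transcript. NR2F2, a nuclear receptor, had 0, 1 and 13. GRK5, a kinase of G protein-coupled receptors, had 0, 0 and 12, with 9 in no transcript and a median GC content of 85.5%. HP1BP3, a chromatin protein, had 0, 0 and 12, with all 12 upstream of the start site, 6 on each strand, and a median GC content of 87.1%. SHARPIN, GRK5 and HP1BP3 had no peak of any class in vector or WT DDX3X. If peaks were independent, a count of 0 would allow up to 3 peaks, or 0.116% of promoter-TSS peaks in vector and 0.0713% in WT DDX3X. Peaks cluster on genes and some peak numbers are missing from these lists, so this limit is rough.

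The largest deficits in G325E, beside SLX1B, were on RRS1, a ribosome biogenesis factor, with 11, 10 and 0 promoter-TSS peaks in vector, WT DDX3X and G325E. All 21 were in its coding sequence and carried the label through the start site of LOC100505676. MIR3187 had 9, 11 and 0, of which 17 were in coding exons of PLPPR3 on the opposite strand. SNORA67 had 9, 9 and 0, all in exons of EIF4A1. C11orf48 had 8, 8 and 0, with 9 in coding exons of UQCC3, an assembly factor of respiratory complex III. SIRT1, a deacetylase, had 10, 7 and 0, with 12 in its coding sequence. RRS1, SNORA67, C11orf48 and SIRT1 had no peak of any class in G325E. The same rough limit for a count of 0 there, with peaks taken as independent, is 0.0551% of promoter-TSS peaks. DDX3X, the expressed gene, had no promoter-TSS peak in any list (0, 33 and 9 peaks of any class), and EEF1A1, an elongation factor, had none either (15, 23 and 0 of any class).

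**Figure D5:**
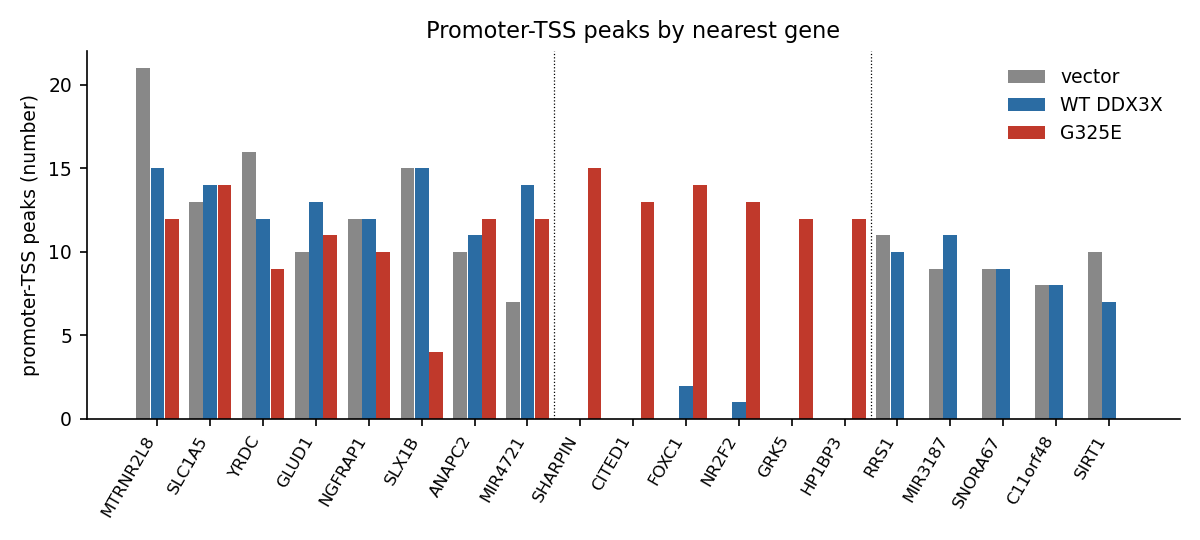
Number of promoter-TSS peaks by deposited nearest gene in vector, WT DDX3X and G325E (1 library each, no error bars). Dotted lines separate the 8 genes with the most peaks, the 6 with the largest excess in G325E (0 to 2 peaks in the other lists, 12 to 15 in G325E) and 5 with the largest deficit (none in G325E); SLX1B, also a deficit gene, stands in the first group.

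Gene groups were set against the share of all genes with a peak that had a promoter-TSS peak (45.4%, 45.1% and 67.2%). Core and linker histone genes, short and without introns, had one on 57 of 64 genes in vector, 55 of 63 in WT DDX3X and 58 of 61 in G325E, with 146, 165 and 172 peaks in all and a median of 2 per gene in each list. HIST2H2AA3 had 6, 9 and 7, and HIST1H2BM 5, 7 and 7, though histone genes share near-identical sequence and counts for any one of them are uncertain. Large ribosomal subunit genes had one on 28 of 40 (70%), 31 of 42 (73.8%) and 20 of 32 (62.5%), with RPL12 at 4, 7 and 6 peaks and RPL13 at 4, 4 and 7. Small subunit genes had one on 20 of 26, 21 of 28 and 19 of 24, with RPS21 at 5, 9 and 6. Counted by the gene whose exon holds the peak, large subunit genes with a promoter-TSS peak numbered 32, 35 and 24 and small subunit genes 20, 23 and 21.

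Translation initiation factors had one on 12 of 20, 14 of 24 and 10 of 15 genes. EIF5A, named an initiation factor although it acts in elongation and termination, led them with 9, 13 and 10 peaks, and EIF3J, a subunit of the EIF3 complex, had 4, 4 and 4. Elongation factor genes had one on 0 of 4, 1 of 5 and 0 of 3, the one being EEF2 with 3 peaks in WT DDX3X. Counted by exon instead, 2, 2 and 1 of these genes held 5, 10 and 7 promoter-TSS peaks, and over the lists 12 such peaks in EEF2 exons bear the name of the snoRNA gene SNORD37. DEAD-box helicases, the family of DDX3X, had one on 4 of 9, 9 of 18 and 7 of 8 genes. These were 9, 21 and 25 peaks, of which 4, 5 and 10 were on the strand opposite to the gene. By the exon that holds the peak, 3, 7 and 5 DEAD-box genes had 5, 15 and 10 promoter-TSS peaks. DDX41 had 4, 5 and 4 promoter-TSS peaks and DDX31 had 1, 1 and 8, of which 9 of the 10 were in exons of its neighbour GTF3C4.

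Immediate-early and intronless transcription factor genes had one on 1 of 14, 5 of 17 and 8 of 16 genes, with 1, 7 and 48 peaks, and lay below the background in each list. FOXC1 and JUND, an AP-1 subunit with 0, 0 and 8 promoter-TSS peaks, contributed 22 of the 48. The hnRNP genes, regulators of splicing, had one on 10 of 15 (66.7%), 12 of 19 (63.2%) and 11 of 16 (68.8%), with HNRNPD at 2, 5 and 9 and PCBP1 at 6, 5 and 4. SR protein genes had one on 4 of 8, 4 of 9 and 3 of 6, with SRSF2 at 3, 5 and 6 and SRSF9 at 2, 2 and 5.

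Heat shock chaperones had one on 4 of 11, 7 of 15 and 7 of 12 genes, among them HSPD1, the mitochondrial chaperonin, with 0, 0 and 9 peaks and HSPA1A with 2, 5 and 5. Peaks of HSPD1 lay in exons of its head-to-head neighbour HSPE1 in 6 of 9 cases. Actin and tubulin genes had one on 6 of 15, 8 of 17 and 6 of 14, with ACTB at 4, 2 and 2 and ACTG1 at 2, 1 and 4. Glycolysis enzymes had one on 5 of 9, 6 of 11 and 4 of 8, with ALDOA at 4, 6 and 2 and PGAM1 at 3, 3 and 6. Of the snoRNA host genes, SNHG9 had 2, 2 and 4 and EIF4A2 had 1, 0 and 0.

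The labels call the cells neuronal although the line is HEK293T. Of 8 neuronal markers 1, TUBB3, had a peak of any class in each list, and STMN2, MAP2, SYP, SNAP25, RBFOX3, SYN1 and GAP43 had none. Of 7 genes known in the HEK293T line, 3, 6 and 4 had a peak in vector, WT DDX3X and G325E. VIM and the neurofilament genes NEFM and NEFL were present in every list, and INA in none. CDH2 had peaks in WT DDX3X and G325E, and KRT8 and KRT18 in WT DDX3X alone.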

How the data were processed

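Ribosome profiling was described in 1 library each of vector, WT DDX3X and G325E, grouped by title. According to the study's methods, the authors trimmed adapters with cutadapt, dropped short reads, aligned with BWA 0.5.5 to NCBI Build 37 with RefSeq, exon-junction and AceView sequences, removed duplicates, called peaks per sample from Bambino coverage, merged them and reviewed them by eye. HOMER's version is not given in the sources used here. The values the authors deposited were base positions and distances per peak, with no count, height or score, so depth is not in them, and read totals tabulated by the study were not used here.

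Directed distances used gene strands from GENCODE 44 lifted to GRCh37 (by Ensembl ID, symbol or Entrez ID). Midpoints were set against its transcripts. Peaks of no length counted as 1 base in overlaps. Shares have 95% Wilson intervals and medians order-statistic intervals. Functions were tested on simulated data. Named genes were the 8 with most promoter-TSS peaks, the 6 with the largest excess and deficit in G325E, DDX3X, EEF1A1 and up to 2 leaders of each of 13 gene lists. Members and lists were chosen with earlier results of these data known. Python 3.11.15, pandas 2.3.3, numpy 2.4.6, scipy 1.17.1 and pysam 0.24.0 were used.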

Additional observations from a re-analysis of the deposited data

How the results depend on the processing

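No paired analysis was possible because each construct has 1 library and the labels carry no replicate numbers. Of 189 values under alternatives, 91 stayed within the interval of the reported value (within 1.5 times for counts of genes), 90 moved outside it and 8, all median distances, changed sign. The promoter-TSS share was higher in G325E than in both other lists under every alternative run for it. Values are in the order vector, WT DDX3X, G325E, and overlaps in the order vector in WT DDX3X, vector in G325E, WT DDX3X in vector, WT DDX3X in G325E, G325E in vector, G325E in WT DDX3X.

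The share of all peaks (23%, 21.1% and 34.7%) became 21.2%, 19.2% and 31.9% with peaks on the gene's strand only, 17.3%, 16.4% and 27.8% with the class set by distance alone, and 25.5%, 24.9% and 32.1% over genes with a peak in all 3 lists. It was 27.2%, 25.1% and 41.5% with intron and intergenic peaks out of the denominator, and 25.5%, 23.9% and 29.9% standardised to pooled GC content. With choices made after seeing the data it was 18.2%, 16.3% and 27.7% within own-strand exons, 23.3%, 21.9% and 36% with peaks 10 bases apart or less joined, and 26.7%, 26.6% and 29.2% standardised to GC content over genes with a peak in all 3 lists.

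The median directed distance of all promoter-TSS peaks (23, 15 and 1 bases) depended on which peaks were used. It was −41, −44 and −49 with the class set by distance alone, −68, −69.5 and −63 for peaks placed by their nearest transcript (added after seeing the data), −8.5, 4 and −3 with the deposited sign (also added), and 42, 37 and 26 on the gene's strand. In G325E it was 11 for peaks of at least 20 bases and 8 over genes with a peak in all 3 lists. The share downstream (56.4%, 53.9% and 50.3%) was 42.3%, 40.6% and 38%, then 37.6%, 37.2% and 35.2%, then 48.6%, 50.7% and 49.4%, and then 62.5%, 60.9% and 57.5% under the same 4 settings. It was 58.7% in vector and 52.6% in G325E for peaks of at least 20 bases, and 51.9% in G325E over genes with a peak in all 3 lists. Setting the class by distance or using the nearest transcript alone removes, by construction, peaks that lie beyond 100 bases downstream of the nearest start site. The median length was 30, 29 and 33 bases for peaks of at least 20 bases and 29, 29 and 31 on the gene's strand.

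Over genes with a peak in all 3 lists, 880 genes in WT DDX3X and 917 in G325E had a promoter-TSS peak, fewer by construction. Overlaps there were 72.2%, 66%, 55%, 58.4%, 46.1% and 53.1%. They were 72.6%, 59.1%, 42.8%, 49.4%, 27.2% and 37.9% for peaks of at least 20 bases, 70.4%, 58.3%, 42.8%, 48.7%, 29.3% and 40.02% on the gene's strand, and 64.9%, 53.4%, 37.1%, 43.6%, 23.3% and 33.1% with the class set by distance alone. Requiring 50% of the peak gave 66%, 52.5%, 37.7%, 42.6%, 23.8% and 34.1%. Nearest-transcript peaks gave 66.7%, 53%, 38.1%, 42.8%, 23.8% and 32.9%, and own-strand exons gave 77.1%, 61.5%, 47.1%, 51.7%, 34.8% and 47.4% (both added after seeing the data). Leaving out peaks of no length, or chromosomes other than 1 to 22 and X, moved no value outside its interval. Without replicates, the spread between cultures cannot be told apart from the differences between constructs. The values were not scaled to read depth.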
